A study of Homo sapiens with 4 samples.

Results

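The early growth response factors EGR1, EGR2 and EGR3 and the corepressors NAB1 and NAB2 were taken by symbol from the gene table, which gave 5 of 36601 genes. All 5 passed the filter on low counts and were among the 15149 genes tested. The cells were microglia-like and derived from human embryonic stem cells of H9, an established line, so that every culture stems from 1 line. Myeloid precursors harvested on day 25 were grown for 7 days in TIC medium, which contains TGF-β, IL-34 and cholesterol. In the Ctrl condition cells received the vehicles DMSO and PBS. Sema cultures received semagacestat, a small-molecule γ-secretase inhibitor, at 2 µM for 22 h. LPS cultures received DMSO and, for the last 6 h, bacterial lipopolysaccharide at 200 ng/mL. SemaLPS cultures received both agents at these doses and times. Each condition had 3 cultures, numbered 1 to 3, and each of the 12 cultures carried its own hashtag antibody. All were detached with actinomycin D, an inhibitor of transcription, in the enzyme mix, pooled, and run as 2 droplet libraries. The questions were what blocking γ-secretase changes in gene expression, and whether LPS can override it.

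EGR factors are zinc-finger transcription factors whose genes are switched on within minutes by growth factor and calcium signals, largely through ERK kinases and serum response factor at CArG boxes. They bind GC-rich sites and activate, among others, the NAB2 gene. NAB1 and NAB2 bind a shared inhibitory domain of EGR1, EGR2 and EGR3, recruit chromatin remodelling complexes and restrain the factors, so that NAB2 closes a negative feedback loop. In myeloid cells EGR1 and EGR2 promote macrophage fate downstream of PU.1, and EGR2 is known from alternatively activated macrophages.

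The promoter windows below show which members carry the letters of the CArG box and of the EGR site, the 2 elements that background links to this circuit, in 1 window per gene. Each window runs from 250 bases before to 50 after a RefSeq start site on GRCh38.p14, 5′ to 3′ on the gene's strand. CArG boxes and EGR sites (GCGNGGGCG, either strand) stand in capitals. The window of EGR1 is chr5:138465229-138465528 on the plus strand, the window of EGR2 is chr10:62816317-62816616 on the minus strand, that of NAB1 is chr2:190648645-190648944 and that of NAB2 is chr12:57088864-57089163, both on the plus strand.
EGR1: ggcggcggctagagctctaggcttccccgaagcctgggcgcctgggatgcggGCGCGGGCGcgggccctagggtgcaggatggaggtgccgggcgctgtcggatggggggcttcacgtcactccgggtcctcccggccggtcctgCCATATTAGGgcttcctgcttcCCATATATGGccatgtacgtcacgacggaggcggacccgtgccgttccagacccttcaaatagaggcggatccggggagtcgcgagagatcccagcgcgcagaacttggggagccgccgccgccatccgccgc
EGR2: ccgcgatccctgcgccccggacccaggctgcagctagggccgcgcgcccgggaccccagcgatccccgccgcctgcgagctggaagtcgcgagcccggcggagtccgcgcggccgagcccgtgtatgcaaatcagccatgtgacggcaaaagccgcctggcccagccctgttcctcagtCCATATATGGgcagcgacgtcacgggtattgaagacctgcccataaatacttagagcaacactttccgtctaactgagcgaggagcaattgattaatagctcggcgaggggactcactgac
NAB1: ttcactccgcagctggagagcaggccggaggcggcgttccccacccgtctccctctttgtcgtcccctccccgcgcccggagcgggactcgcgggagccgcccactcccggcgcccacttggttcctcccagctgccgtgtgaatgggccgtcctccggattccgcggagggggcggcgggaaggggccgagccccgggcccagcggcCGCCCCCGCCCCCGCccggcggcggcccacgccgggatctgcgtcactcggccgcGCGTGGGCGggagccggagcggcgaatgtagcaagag
NAB2: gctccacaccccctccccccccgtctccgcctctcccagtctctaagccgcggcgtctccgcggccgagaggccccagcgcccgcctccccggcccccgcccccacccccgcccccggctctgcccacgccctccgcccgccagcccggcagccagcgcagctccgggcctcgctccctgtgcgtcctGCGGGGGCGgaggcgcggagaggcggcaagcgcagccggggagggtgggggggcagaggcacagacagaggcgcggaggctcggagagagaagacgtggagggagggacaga

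RefSeq promoter windows matched 4 of the 5 members, in 8 windows. EGR1 has CArG boxes at −105 and −83 from the start and an EGR site at −198. EGR2 has 3 windows, and a CArG box at −71 in the one printed, the most downstream. Another EGR2 window, which is not printed, has an EGR site at 8. A CArG box occurs in 1.29% of all 35116 windows. NAB2 has an EGR site at −62. NAB1 has EGR sites at −42, −36 and 13 in the window printed, of which the first and second overlap. An EGR site occurs in 9.43% of all windows. Of the other motifs searched on both strands, the cyclic AMP response element core TGACG (24.6% of windows) occurs in EGR1, in the printed EGR2 window and in all 3 NAB1 windows, of which 2 overlap. TGGGAA, the core of RBPJ sites (24.0%), occurs in EGR1 at −86, where it overlaps a CArG box, and in 1 NAB1 window. The NF-kB site (5.91%) occurs in 1 NAB1 window, and the AP-1 site TGANTCA (7.71%) in none of the 8. These are matches of letters only.

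Hashtags assigned 22260 of 28943 barcodes to a single culture, and 15317 cells were kept, between 1078 and 1711 per culture. Summed counts reached 30974756 to 52261540 unique molecular identifiers (UMIs) per culture. Markers of microglia and macrophages summed to between 5672 and 6270 CPM (counts-per-million) in the cultures, with all 10 detected. Markers of pluripotent cells stayed at or below 0.942 CPM and erythroid markers at or below 0.0571. Other lists summed higher: monocyte markers to between 207 and 1224 CPM, dendritic cell markers 29.1 and 112, and endothelial markers 35.4 and 93.2. Lymphoid markers summed to between 16.7 and 27.2 and neural markers to between 14.6 and 32.5. At their highest these sums rest largely on 1 gene each. These were S100A9 (up to 948 CPM), LAMP3 (87.8), PECAM1 (92.1), NKG7 (26.6) and NES (20.5). Proliferation markers summed to between 245 and 563 CPM. HES1, a Notch target used to check the inhibitor, stood at 2.75 to 3.28 CPM in Ctrl and 1.34 to 1.75 in Sema cultures. The share of cells above 10% mitochondrial UMIs, 20.0 to 38.8% per culture, was lower with LPS at each culture number, and lowest in number 1 within each condition. Its part in the results was not tested beyond a looser limit. The design text calls the cultures biological replicates, without saying what a number shares, so p-values cover the variation among these 12 cultures and no other.

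Under LPS the 3 EGR factors and NAB2 fell, and NAB1 rose. In LPS against Ctrl 4 of the 5 members fell, where 28.7% of all genes tested fell, and 1 rose, where 30.3% of all genes tested rose. In SemaLPS against Sema, the same contrast on top of the inhibitor, again 4 members fell and 1 rose, where 30.3% and 30.9% of all genes did. LPS thus moved most genes, and a call alone sets no member apart. In counts summed per culture, fewer cells with a transcript and less transcript per cell cannot be told apart, which is why shares of cells are given further on.

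EGR1 (ENSG00000120738, GRCh38 chr5:138465490-138469315, plus strand), the founding member and a fast responder to growth factors, stood at 7.10, 7.81 and 8.33 CPM in Ctrl cultures 1, 2 and 3. In Sema cultures it stood at 6.01, 4.66 and 5.78, in LPS cultures at 3.36, 3.57 and 3.08, and in SemaLPS cultures at 1.68, 2.98 and 2.49. The 4 conditions did not overlap, and fell in the order Ctrl, Sema, LPS, SemaLPS, though LPS and SemaLPS parted only at 3.08 against 2.98. Overlap of levels was not computed for other genes, so its absence sets no member apart. These levels rest on 64 to 304 UMIs per culture. The log2 fold change was −1.22 in LPS against Ctrl (SE 0.16, adjusted p = 1.4e-05) and −1.19 in SemaLPS against Sema (SE 0.16, adjusted p = 2.4e-05).

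EGR2 (ENSG00000122877, chr10:62811996-62919900, minus strand), the member tied to myeloid differentiation, showed the largest fall of the 5 under LPS. It stood at 13.3, 17.8 and 15.1 CPM in Ctrl cultures and at 9.97, 14.9 and 11.9 in Sema cultures. It stood at 4.02, 4.79 and 4.19 in LPS cultures and at 2.49, 4.01 and 3.32 in SemaLPS cultures. Ctrl and Sema overlapped, and both lay above every culture with LPS. The mean in LPS was 0.282 of the Ctrl mean, a log2 fold change of −1.83 (SE 0.17, adjusted p = 6.9e-07). In SemaLPS against Sema the log2 fold change was −1.89 (SE 0.18, adjusted p = 5.8e-07).

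EGR3 (ENSG00000179388, chr8:22687659-22693302, minus strand), a paralogue that binds the same sites, stood at 8.78, 9.37 and 9.11 CPM in Ctrl cultures, the tightest group of the 3 factors there. It stood at 4.73, 6.17 and 5.23 in Sema, at 3.58, 3.85 and 3.62 in LPS and at 3.31, 2.71 and 2.49 in SemaLPS cultures. No 2 conditions overlapped. The log2 fold change was −1.30 in LPS against Ctrl (SE 0.11, adjusted p = 2.6e-07) and −0.92 in SemaLPS against Sema (SE 0.12, adjusted p = 1.2e-05).

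NAB1 (ENSG00000138386, chr2:190646746-190692766, plus strand), the corepressor usually described as constitutive, was the one member that rose. It stood at 16.3, 16.4 and 17.8 CPM in Ctrl and at 15.9, 17.2 and 16.4 in Sema cultures. With LPS it stood at 38.2, 35.4 and 40.0, and with both agents at 37.0, 35.8 and 35.5. The cultures fell into a low pair of conditions without LPS and a high pair with it, and within each pair the conditions overlapped. The LPS mean was 2.25 times the Ctrl mean, a log2 fold change of 1.17 (SE 0.06, adjusted p = 6.4e-10), and in SemaLPS against Sema it was 1.13 (SE 0.05, adjusted p = 7.6e-10).

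NAB2 (ENSG00000166886, chr12:57088894-57095476, plus strand), the corepressor that EGR factors themselves induce, went the other way from its paralogue. It stood at 20.1, 22.6 and 21.5 CPM in Ctrl, 17.4, 20.2 and 18.3 in Sema, 8.36, 9.93 and 10.3 in LPS and 7.01, 10.2 and 8.92 in SemaLPS cultures. Ctrl and Sema overlapped in 1 culture of each, 2 of the 3 SemaLPS cultures lay within the LPS range, and no culture with LPS reached one without it. The log2 fold change was −1.17 in LPS against Ctrl (SE 0.11, adjusted p = 1.1e-06) and −1.09 in SemaLPS against Sema (SE 0.12, adjusted p = 1.8e-06). All 5 members kept sign and call in both LPS contrasts under each of 19 alternatives. In GENCODE v29 NAB2 shares 69 bases with STAT6 on the other strand, and antisense transcripts overlap NAB1 and EGR3. The sources used here do not say whether counting used the strand.

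**Figure D1:**
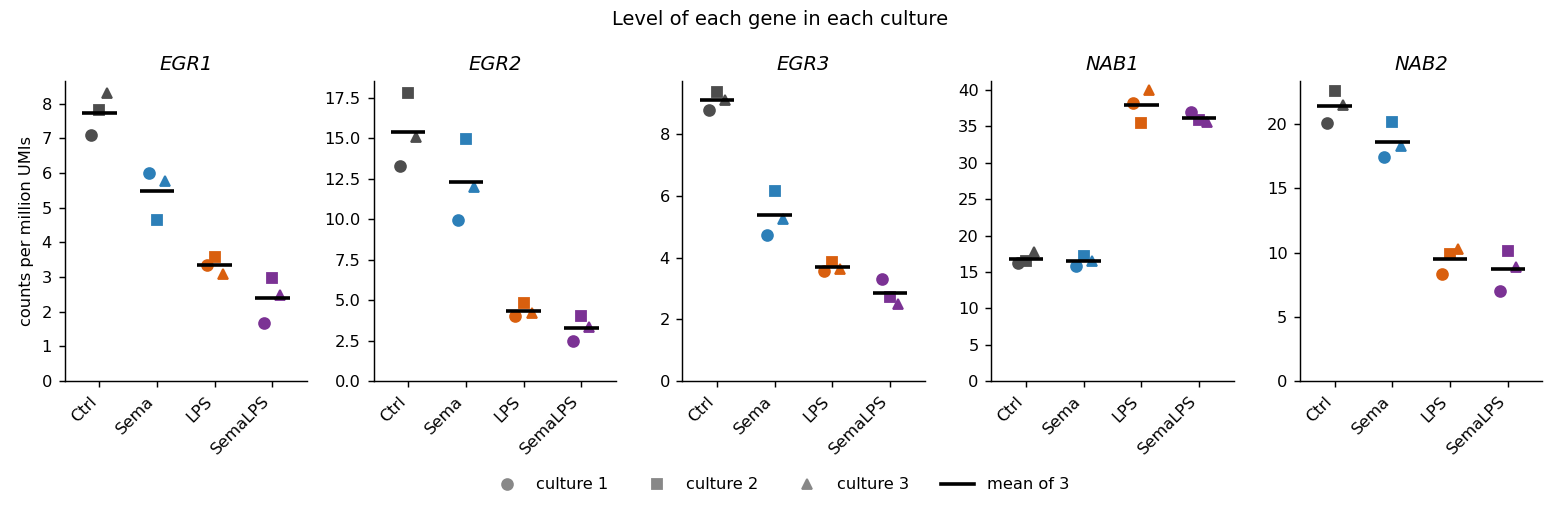
Level of the 5 genes in each of the 12 cultures, in CPM (vertical axes from 0, 1 panel per gene). Symbols mark the culture number and bars the mean of 3 cultures; the EGR factors and NAB2 step down with LPS, while NAB1 rises from about 16 to 18 to 35 to 40.

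Semagacestat without LPS lowered EGR3. The Sema mean was 0.592 of the Ctrl mean, with a log2 fold change of −0.76 (SE 0.11, adjusted p = 0.0476), lower in 3 of 3 same-numbered pairs. EGR3 was 1 of the 2 genes that fell in this comparison, and thus the only member called where 0.0132% of all genes tested fell; the other gene was HES1. EGR1 had a log2 fold change of −0.49 (SE 0.15, adjusted p = 0.536), EGR2 of −0.32 (SE 0.15, adjusted p = 0.681) and NAB2 of −0.20 (SE 0.11, adjusted p = 0.708), none of which passed. For NAB1 the difference was −0.03 with a 95% interval from −0.15 to 0.10.

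The culture number mattered here. With it as a block, EGR1 (−0.49, SE 0.13, adjusted p = 0.0415), EGR2 (−0.33, SE 0.06, adjusted p = 0.0102) and EGR3 (−0.76, SE 0.09, adjusted p = 9.6e-04) all fell. These are 3 of 5 members, where 1.69% of all genes tested fell. NAB2 stood at −0.20 (adjusted p = 0.0805) and NAB1 at −0.03 (adjusted p = 0.864). EGR3 passed under each of 19 alternatives to this paired fit, with log2 fold changes from −0.91 to −0.58. EGR2 passed under 15 and EGR1 under 11. EGR1 lost its call with DESeq2, in either library alone, and without any 1 of Ctrl-1, Ctrl-2, Ctrl-3, Sema-2 or Sema-3. EGR2 lost its call in either library alone and without Ctrl-3 or Sema-3. Without the block EGR3 itself passed under 7 of 19 alternatives (adjusted p from 2.0e-05 to 0.481). That call was lost with at most 20% mitochondrial UMIs, in either library alone, and on leaving out any culture other than Ctrl-1, SemaLPS-1 or SemaLPS-3.

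In the presence of LPS the inhibitor's differences had the same sign, and edgeR called 0 of 5 members without the block, where 0.0132% of all genes tested fell. DESeq2 called 0 members too, and EGR1 and EGR3 had an unadjusted edgeR p under 0.05. SemaLPS against LPS gave −0.47 for EGR1 (SE 0.17, adjusted p = 0.896), −0.39 for EGR2 (SE 0.19, adjusted p = 0.896) and −0.38 for EGR3 (SE 0.12, adjusted p = 0.858). For EGR2 the highest SemaLPS culture (4.005 CPM) lay just under the lowest LPS culture (4.015). NAB1 stood at −0.07 and NAB2 at −0.12. With the block, EGR2 alone passed (−0.41, SE 0.09, adjusted p = 0.0332), 1 of 5 members where 0.667% of all genes tested fell. EGR2 lost that call under 10 of 19 alternatives, namely DESeq2, the hashtag ratio rule (−0.22), the looser mitochondrial limit (−0.13), either library alone, and leaving out LPS-1, LPS-3, SemaLPS-1, SemaLPS-2 or SemaLPS-3 (adjusted p from 0.00725 to 0.579 over all 19).

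Whether LPS altered the inhibitor's effect was tested by the interaction. None of the 5 members passed, with 0% of all genes tested called without the block and 0.0462% with it; DESeq2 called 1 gene, and 526 of 15149 genes had an unadjusted edgeR p under 0.05, without the block. EGR3 had the largest interaction of the members, 0.38 on the log2 scale (SE 0.16, 95% interval from 0.03 to 0.73, adjusted p = 1.00), a positive value meaning a smaller fall with the inhibitor under LPS. For EGR1 it was 0.03 with a 95% interval from −0.47 to 0.52, and for EGR2 −0.06 from −0.60 to 0.47, so that sizeable differences in either direction lie within these intervals.

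Averaged over both LPS states, the inhibitor's effect was −0.57 for EGR3 (SE 0.08, adjusted p = 0.0174), −0.48 for EGR1 (SE 0.11, adjusted p = 0.239), −0.36 for EGR2 (SE 0.12, adjusted p = 0.405), −0.16 for NAB2 and −0.05 for NAB1. EGR3 was the 1 member called, where 0.0264% of all genes tested fell. It passed under 8 of 19 alternatives (adjusted p up to 0.179), and lost its call with DESeq2, at 20% mitochondrial UMIs, in either library, and without Ctrl-2, Ctrl-3, Sema-1, Sema-3, LPS-2, SemaLPS-2 or SemaLPS-3. With the block 4 members fell, where 2.78% of all genes tested fell. They were EGR3 (−0.57, adjusted p = 3.5e-04), EGR2 (−0.37, adjusted p = 0.00102), EGR1 (−0.48, adjusted p = 0.0100) and NAB2 (−0.17, adjusted p = 0.0472). In that paired fit EGR3 passed under 19 of 19 alternatives, EGR2 under 18 (not in library 1 alone), EGR1 under 17 (in neither library alone) and NAB2 under 7. NAB2 lost its call with DESeq2, in either library alone, and without any culture other than Sema-1, LPS-2 or SemaLPS-2. NAB1 did not pass (−0.05, 95% interval from −0.12 to 0.03).

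**Figure D2:**
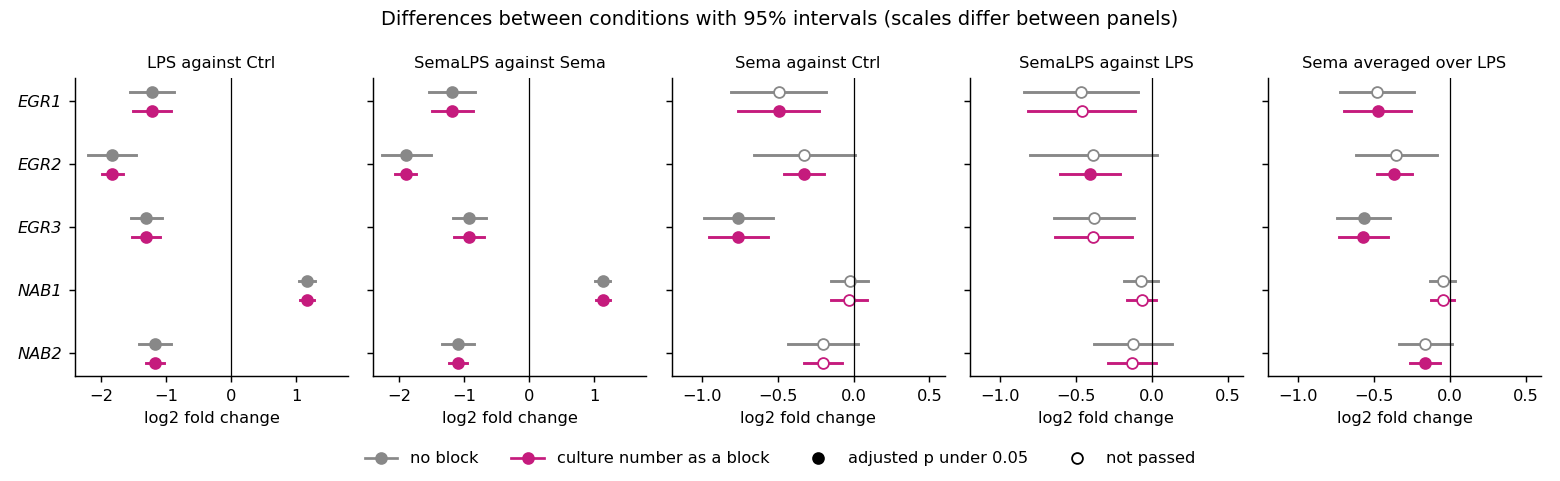
Log2 fold change of each gene in 5 comparisons, with 95% intervals, without a block (grey) and with the culture number as a block (magenta); filled points have an adjusted p under 0.05. The horizontal scales differ: LPS moves every gene by about 1 or more. In the inhibitor panels the EGR factors stand 0.32 to 0.76 lower and NAB1 near 0. Without the block only EGR3 passes there, in Sema against Ctrl and averaged over LPS.

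EGR2 and NAB2 were the members that followed the culture number most. EGR2 was lowest in number 1 and highest in number 2 in each of the 4 conditions. Its deviation from the condition mean averaged −0.24 on the log2 scale in cultures numbered 1 and 0.24 in those numbered 2. NAB2 averaged −0.16 and 0.13. The other 3 members deviated less, at most by 0.11 in either direction (EGR1 in number 1).

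Shares of cells with at least 1 UMI were compared after each cell was thinned to 10000 UMIs. EGR1 was seen in 5.35% ± 0.50 of Ctrl cells (SD, n = 3), 3.89% ± 0.60 in Sema, 2.32% ± 0.37 in LPS and 1.42% ± 0.42 in SemaLPS. EGR2 was seen in 12.7% ± 2.40, 9.29% ± 1.32, 3.20% ± 0.94 and 2.54% ± 0.90, and EGR3 in 7.02% ± 0.58, 3.91% ± 0.95, 2.72% ± 0.60 and 2.22% ± 0.44, in the same order. The shares of the EGR factors thus moved with their summed levels.

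NAB1 was seen in 15.8% ± 0.54 of Ctrl, 15.6% ± 1.12 of Sema, 27.4% ± 0.82 of LPS and 27.0% ± 0.95 of SemaLPS cells. NAB2 was seen in 19.9% ± 2.49, 16.9% ± 1.30, 8.06% ± 1.04 and 6.96% ± 1.18. For all 5 members the shares did not overlap between LPS and Ctrl, nor between SemaLPS and Sema, contrasts in which the summed counts of 30.3% and 30.9% of all genes tested rose and those of 28.7% and 30.3% fell. Between Sema and Ctrl only EGR1 and EGR3 did not overlap, and between SemaLPS and LPS only EGR1. In these cases the exact two-sided permutation test gave p = 0.1, the smallest that 3 cultures against 3 allow (adjusted p = 0.154 over 20 tests), so that none can pass. Between Sema and Ctrl, EGR1 and EGR3 also did not overlap with thinning to 5000 UMIs, without thinning, or with at most 20% mitochondrial UMIs. NAB2 did not overlap there at 5000 UMIs or at the looser mitochondrial limit. Between SemaLPS and LPS, EGR1 overlapped under each of these alternatives, while EGR3 did not overlap at 5000 UMIs or without thinning. Shares of cells were not computed for other genes, so a lack of overlap sets no member apart.

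The UMIs held by a positive cell also differed for some members. Without thinning, an EGR2-positive cell held 1.99 ± 0.02 UMIs in Ctrl and 1.58 ± 0.11 in LPS cultures, and a NAB1-positive cell 1.39 ± 0.05 and 1.88 ± 0.08, with no overlap for either gene. After thinning these were 1.34 ± 0.02 and 1.18 ± 0.09 for EGR2, and 1.15 ± 0.06 and 1.23 ± 0.01 for NAB1, again with no overlap. A positive cell holds at least 1 UMI by definition, so thinned values near 1 leave little room for a difference to be seen. An EGR1-positive cell held 1.51 ± 0.16 thinned UMIs in Ctrl and 1.43 ± 0.14 in LPS cultures, which overlapped. Without thinning, EGR2 was seen in 24.0% ± 2.98 of Ctrl and 8.05% ± 1.07 of LPS cells, whose median depth was higher (30129 to 30979 UMIs per cell, against 27755 to 28028 in Ctrl). All cultures were pooled before droplets were made, so RNA free in the pool would reach all of them alike. After thinning, the lowest shares in any culture were 1.16% for EGR1 (SemaLPS-3), 1.82% for EGR2 (SemaLPS-1) and 1.71% for EGR3 (SemaLPS-2). For NAB1 the lowest was 14.4% (Sema-1) and for NAB2 5.60% (SemaLPS-1). How much of any share came from free RNA was not tested. Most cells showed no EGR transcript at this depth, 79.0% ± 2.13 in Ctrl, 85.2% ± 1.69 in Sema, 92.6% ± 1.77 in LPS and 94.4% ± 0.99 in SemaLPS.

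**Figure D3:**
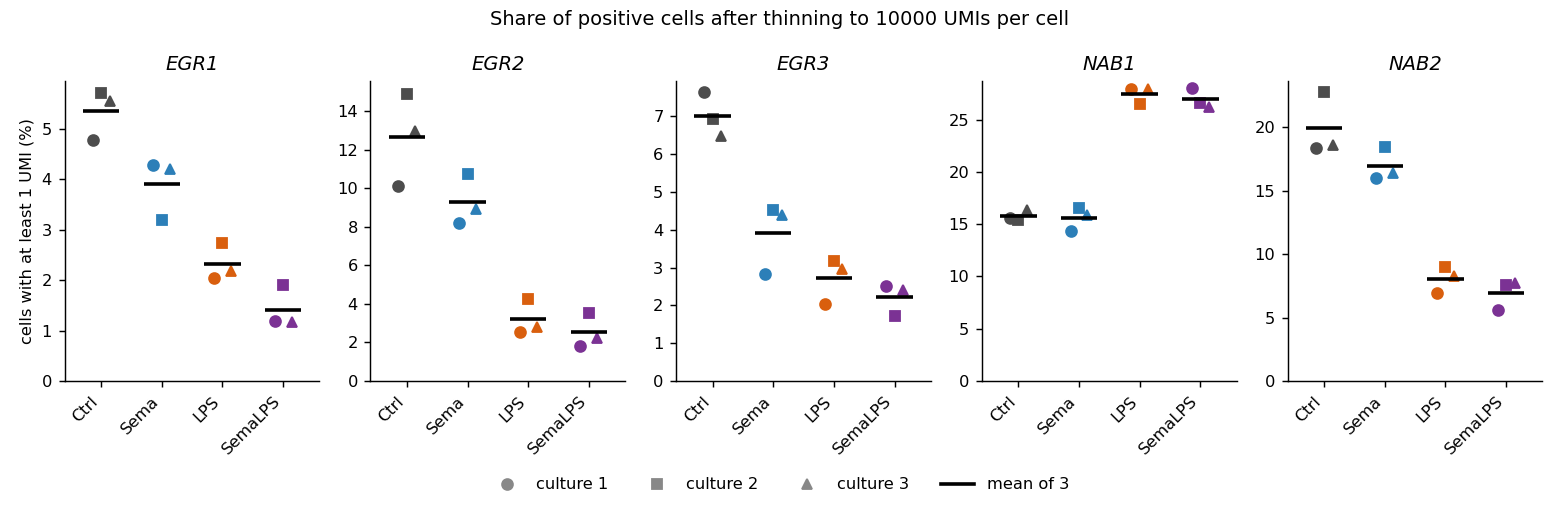
Share of cells with at least 1 UMI of each gene, in percent, by culture, after thinning to 10000 UMIs per cell. Symbols mark the culture number and bars the mean of 3; NAB1 is seen in 14 to 17% of cells without LPS and 26 to 28% with it, while the other 4 genes are seen in fewer cells with LPS.

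Within single cells, the EGR factors were found together. In Ctrl cultures EGR3 was seen in 22.4% ± 3.86 of cells with EGR1 and 6.16% ± 0.50 of cells without it. It was seen in 16.3% ± 2.34 of cells with EGR2 and 5.70% ± 0.59 of cells without. Both differences had this direction in 12 of 12 cultures, and that for EGR1 and EGR2 in 10 of 12. NAB2 was seen in 27.0% ± 4.19 of Ctrl cells with EGR2 and 18.9% ± 2.35 without, and in 20.8% ± 3.71 against 7.66% ± 0.99 of LPS cells, again higher in 12 of 12 cultures. NAB2 was higher in EGR1-positive and in EGR3-positive cells in 9 of 12 cultures each. NAB1 showed no such direction with EGR1 or EGR2, being higher in EGR1-positive and in EGR2-positive cells in 6 of 12 cultures each. It was higher in EGR3-positive cells in 8 of 12. NAB2 was also higher in NAB1-positive cells in 9 of 12 cultures, so that count is not particular to pairs with an EGR factor. SemaLPS cultures held only 14 to 30 EGR1-positive cells each, so a direction there can rest on few cells. Thinning gives these cells 1 depth, and the shares are descriptions that mix cell states.

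**Figure D4:**
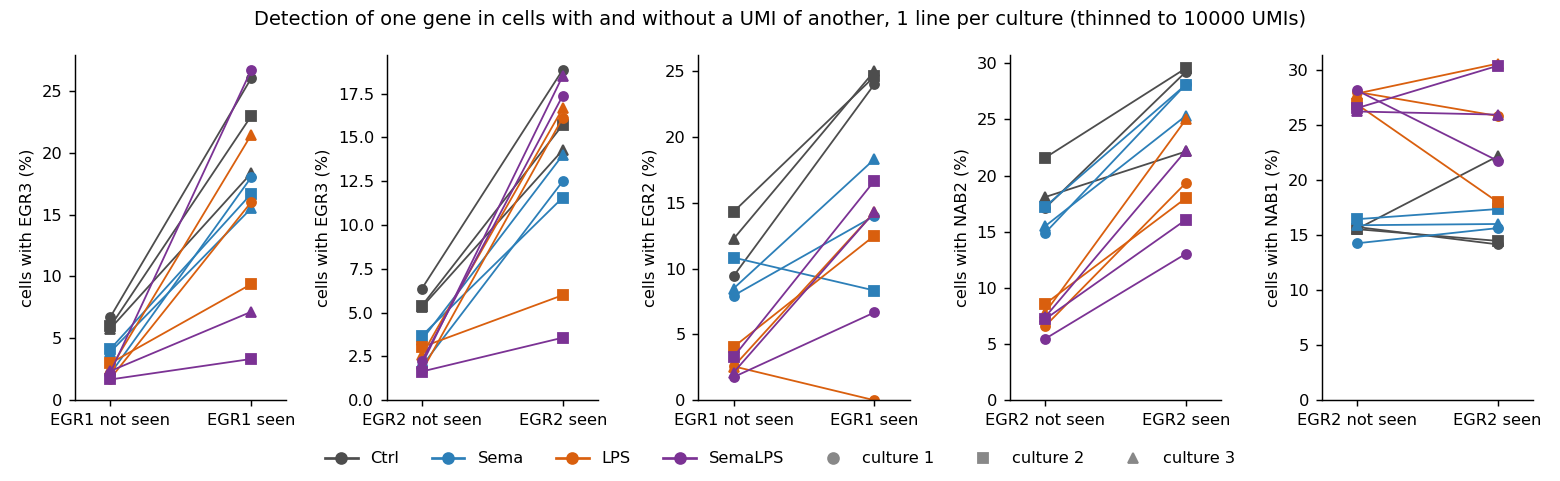
Percent of cells in which a second gene is seen, among cells without (left) and with (right) a UMI of a first gene, 1 line per culture, thinned to 10000 UMIs per cell. EGR3 rises with EGR1 and with EGR2 and NAB2 rises with EGR2 in all 12 lines, while NAB1 has no common direction with EGR2.

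Cells were clustered without the 5 members, to see where in the cultures they lie. Differences between clusters are a description, since genes that vary with the members shaped the clusters. Without LPS most cells fell into a cluster led by RGCC, EMP1 and SPOCD1 (2829 cells), a cluster led by IGF1, CYSLTR1 and P2RY13 (3295 cells) and a proliferating-like cluster (1000 cells, led by the S-phase genes FAM111B, DTL and CDC6). With LPS they fell into a cluster led by CCL8, TIFAB and TNIP3 (3516 cells), one led by CCL1, CLEC4E and TRAF1 (3190 cells) and a proliferating-like one (911 cells, led by UBE2C, HIST1H1B and MKI67). In both of these proliferating-like clusters 9 of 9 markers fixed for that class were over 2-fold higher than in other cells. The other 5 clusters held 41 to 234 cells. Of them 1 was led by CDC20, NEK2 and ASPM (160 cells, 6 of 9 such markers over 2-fold higher) and 1 by CLC, CPA3 and MS4A3 (41 cells).

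EGR2 was concentrated in the RGCC and EMP1 cluster. There it stood at 25.8 to 30.7 CPM in Ctrl and 24.1 to 30.5 in Sema cultures. In the IGF1 and CYSLTR1 cluster it stood at 6.23 to 6.97 and 4.23 to 5.53. The groups had a median depth of 29340 and 25641 UMIs per cell. EGR2 was among the 3 genes of largest fold in the RGCC and EMP1 cluster, although it had no part in the clustering. Between Ctrl and Sema, EGR2 overlapped within the RGCC and EMP1 cluster and did not overlap within the IGF1 and CYSLTR1 cluster; neither difference was tested.

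EGR3 and NAB2 leaned to the same cluster, and less so. EGR3 stood at 12.7 ± 1.77 CPM in the RGCC and EMP1 cluster and 7.13 ± 1.89 in the IGF1 and CYSLTR1 cluster of Ctrl cultures (SD, n = 3), and in Sema cultures at 8.94 ± 2.60 and 3.92 ± 1.26. NAB2 stood at 29.5 ± 1.00 and 18.1 ± 1.78 in Ctrl, and at 28.8 ± 2.34 and 15.1 ± 0.29 in Sema. EGR1 did not lean that way: it stood at 8.44 ± 0.91 and 7.33 ± 0.61 in these clusters in Ctrl. Of the 3 large clusters without LPS it was highest, 12.0 ± 2.92, in the proliferating-like one. EGR1 was lower in each Sema culture than in each Ctrl culture in all 3 of these clusters, at 5.68 ± 1.28, 5.87 ± 0.42 and 6.78 ± 0.52. EGR3 overlapped between Ctrl and Sema in each of the 3. Neither was tested, and overlap within clusters was not computed for other genes. In the small CDC20 and NEK2 cluster EGR1 stood at 2.96 in the 1 Ctrl culture with 30 or more of its cells. The 2 Sema cultures with as many stood at 4.62 and 9.18. NAB1 was nearly level, at 18.1 ± 0.65 and 16.7 ± 0.79 in Ctrl, and at 22.6 ± 2.81 in the proliferating-like cluster.

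Among the 3 large clusters with LPS, the EGR factors had their highest means in the CCL1 and CLEC4E cluster. EGR2 stood there at 5.73 ± 0.95 CPM, against 1.13 ± 0.25 in the CCL8 and TNIP3 cluster and 1.18 ± 0.25 in the proliferating-like one. EGR3 stood at 5.36 ± 0.78, 1.42 ± 0.34 and 1.91 ± 0.64, and NAB2 at 10.7 ± 0.72, 6.45 ± 0.97 and 6.12 ± 0.40. NAB1 stood at 36.1 ± 1.96, 35.5 ± 0.58 and 32.6 ± 3.39, so that its LPS level was alike across the 3 clusters. In the 3 large clusters without LPS its means ran from 15.8 to 26.5, and its highest Sema culture, 30.1 in the proliferating-like cluster, reached the lowest LPS one, 29.5. A small cluster led by HPGD, CRABP2 and FABP4 (234 cells) held more EGR2 than any of these, at 15.1 and 20.8 CPM in the 2 LPS cultures with 30 or more of its cells, with EGR3 at 0 and 2.77. NAB1 stood there at 30.1 and 36.0 in these LPS cultures, and at 19.8 and 24.5 in the 2 SemaLPS cultures with as many cells.

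**Figure D5:**
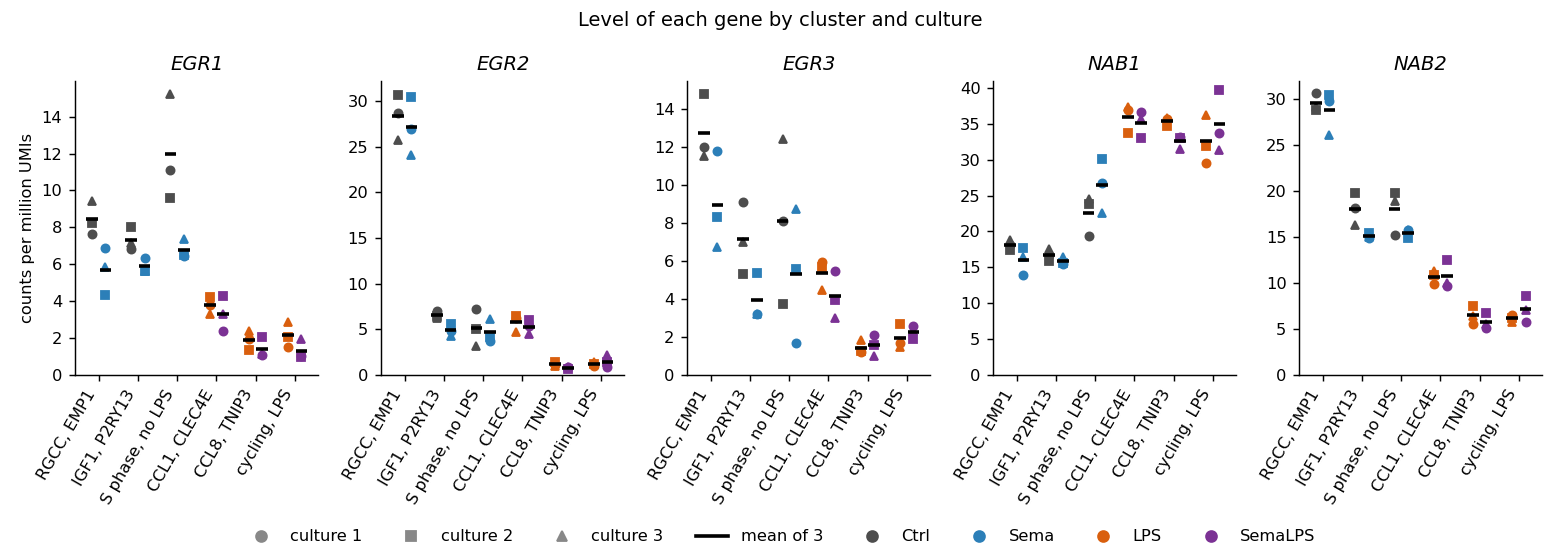
Level of each gene, in CPM without TMM scaling, in 6 clusters named by leading genes. Points stand for cultures (symbols for the number, colours for the condition) and bars for means of 3. In these 6 clusters EGR2 stands near 28 in the RGCC and EMP1 cluster and at or below 7.2 otherwise. The means of NAB1 run here from 15.8 to 26.5 without LPS and from 32.6 up with it.

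The genes around this circuit were read from fixed lists. Of 26 other immediate-early genes tested, 14 rose and 6 fell in LPS against Ctrl (median log2 fold change 0.50, against −0.02 over all genes). In this contrast 30.3% of all genes tested rose and 28.7% fell. The stress-inducible IER3 (2.29, SE 0.08, adjusted p = 2.9e-11), IER5 (1.82, SE 0.08, adjusted p = 4.1e-10) and MAFF (1.69, SE 0.06, adjusted p = 1.4e-11) rose, unlike the EGR factors. Of 14 ERK feedback and readout genes 6 rose and 7 fell (median −0.21). The inhibitors of receptor signalling SPRY2 (−2.56, SE 0.11) and SPRED1 (−1.43, SE 0.07) and the ERK phosphatase DUSP7 (−1.99, SE 0.08) fell (adjusted p at most 7.9e-10 for each). Of 22 genes on the route from CSF1R through ERK to serum response factor, 10 rose and 7 fell (median 0.12): CSF1R, the receptor for IL-34, fell by 0.92 and the ternary complex factor ELK3 by 1.09, while the adaptor GRB2 rose by 0.68.

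Of 22 genes described elsewhere as EGR1 targets 14 rose and 3 fell in LPS against Ctrl (median 0.68), among the risers ICAM1 (2.38), CD44 (2.15) and TNF (adjusted p = 4.6e-09), which NF-kB also drives. TNF went from 9.15 ± 0.47 CPM in Ctrl to 157 ± 48.5 in LPS cultures (SD, n = 3). In this contrast 30.3% of all genes tested rose and 28.7% fell. With the block 14 of these targets rose and 5 fell, where 4993 of 15149 genes rose and 4857 fell. Of 17 EGR paralogues and co-regulators tested 4 rose and 4 fell (median −0.07), with the deacetylase HDAC2 up by 0.56, RBBP7 at −0.25 and SP1 at −0.35. EGR4, the remaining paralogue, held 0 to 4 UMIs per culture and was not tested. In SemaLPS against Sema 16 immediate-early genes rose and 6 fell, 6 and 6 ERK feedback genes, 11 and 7 genes of the CSF1R route, 13 and 3 EGR1 targets and 5 and 3 co-regulators. There 30.9% of all genes tested rose and 30.3% fell.

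Under the inhibitor, in Sema against Ctrl, the median of the immediate-early list was −0.15, against 0.00 over all genes, with 0 of 26 called without the block. With the block 7 of 26 fell and 0 rose, where 1.69% of all genes tested fell. The 7 included HBEGF, an EGF receptor ligand (−0.65, SE 0.11, adjusted p = 0.00441), JUND (−0.23, SE 0.04, adjusted p = 0.00643) and IER2 (−0.26, SE 0.06, adjusted p = 0.0203). Of the ERK feedback genes 3 of 14 fell with the block, DUSP1 (−0.43, SE 0.06, adjusted p = 0.00132), PHLDA1 (−0.27, SE 0.05, adjusted p = 0.0162) and DUSP4 (−0.27, SE 0.06, adjusted p = 0.0249), and 0 without it. On the CSF1R route 1 of 22 genes passed with the block (ELK3, 0.16), of EGR1 targets 1 of 22 (TNFSF10, 0.47) and of co-regulators 0 of 17. In the fit with the block 286 of 15149 genes tested rose.

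In SemaLPS against LPS DUSP1 passed in both fits (−0.48, SE 0.06 and adjusted p = 0.0297 without the block). With the block 1 of 26 immediate-early genes fell (HBEGF, −0.57, adjusted p = 0.0366), and 3 of 14 ERK feedback genes fell and 1 rose, led by DUSP1, DUSP6 (−0.34) and ETV5 (0.18). In this fit 0.667% of all genes tested fell and 202 of 15149 rose. Of EGR1 targets 3 of 22 fell with the block, PDGFA (−0.40, adjusted p = 0.00119), PDGFB (−0.29, adjusted p = 0.0366) and THBS1 (−0.65, adjusted p = 0.0470). Averaged over LPS, 11 of 26 immediate-early genes fell and 0 rose with the block, where 2.78% of all genes tested fell. Without the block 0 of 26 passed. DUSP1 passed in both fits (−0.45, SE 0.05, adjusted p = 0.00137 without the block). The lists were chosen with results on these samples known, so these counts are no independent evidence of direction.

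The genes whose levels ran most like each member over the 12 cultures were named by Pearson's r of log2 CPM among 7444 genes of at least 10 CPM, or 7443 where the member is itself one. All share the contrast between cultures with and without LPS. They were RNF19A, ABR and SNRK for EGR2 (r 0.99 each), CDK17, STYXL1 and RCOR3 for EGR3 (0.97 to 0.94), and SCPEP1, BTG1 and KIF1B for EGR1 (0.96 each). They were UBE2D3, MAP1LC3A and KLHL5 for NAB1 (0.998 each) and, for NAB2, included STX6 and DDIT4L (0.99 for the latter). By this measure r exceeded 0.95 for 1590 genes with NAB1, 600 with NAB2 and 495 with EGR2, so their named genes stand among many. It did so for 7 genes with EGR1 and 1 with EGR3. By deviations from condition means, which leave out that contrast, the first genes were TBC1D9 for EGR1 (0.91), MCRIP2 for EGR2 (0.97), RLIM for EGR3 (0.88), HACD2 for NAB1 (0.95) and TRG-AS1 for NAB2 (0.99). RNF19A stood among the 3 nearest genes of EGR2 by both measures.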

How the data were processed

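Members and lists were chosen with earlier results of these data known. The deposited matrices give, for each barcode, raw UMI counts of genes and hashtags; per the file headers they came from Cell Ranger 6.0.1, and per the submitters' processing notes from version 3.0.2, with hg38 and Seurat 4.1.1. Hashtags were assigned by a threshold per tag in the manner of HTODemux. The 6200 barcodes with several tags (21.4%) were left out as doublets, and doublets within a culture were not sought. A cell was kept with 1000 or more genes and no more than 10% mitochondrial UMIs (8223 and 7094 in the libraries). Of the kept cells 12 barcode sequences occurred in both libraries, 2 of them in the same culture.

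Sums of counts per culture went through the quasi-likelihood test of edgeR 4.0.16 (R 4.3.3), after filterByExpr and TMM scaling, with all 12 cultures fitted together. Adjusted p-values are Benjamini-Hochberg values over all 15149 genes, called at 0.05. CPM are TMM-scaled. Standard errors are the log2 fold change over the square root of F. No block was planned. Cultures of 1 number deviated together (r 0.38 to 0.71 over 7444 genes, other numbers −0.55 to 0.21, and 12 of 12 cultures were closest to their own number), so a paired fit, in which the culture number enters as a block, is given where it changes a call. The pairing comes from the data. The test was checked on counts drawn with known changes. Shares used an exact permutation test over all splits of the cultures compared, and scipy 1.17.1 served to fit the hashtag thresholds. Clusters came from scanpy 1.11.5 (1997 variable genes, 30 components, 15 neighbours, Leiden resolution 0.5, cultures with 30 or more cells), and positions from GENCODE v29. Named list genes are up to 3 per list and comparison, by the smallest adjusted p in the paired fit, and likeness names up to 3 genes per member and measure; 1 gene is not reported here. The alternatives were DESeq2 1.42.0, RLE size factors, no filter, another hashtag rule (top tag at least 3 times the second and at least 20), at most 20% mitochondrial UMIs, each library alone, each culture left out, and thinning to 5000 UMIs or none. Their repeats in the paired fit were added after seeing the data.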

Additional observations from a re-analysis of the deposited data

How the results depend on the processing

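In LPS against Ctrl and SemaLPS against Sema every alternative called all 5 members, in the same direction. In Sema against Ctrl 1 member and 2 genes were called; the paired fit gave 3 and 542. Members called were 0 with at most 20% mitochondrial UMIs and in either library alone, and 0 to 1 with 1 culture left out. Genes called were 19 with DESeq2, 1 at 20% mitochondrial UMIs, 0 in library 1, 32 without the filter and 0 to 13 with 1 culture left out. Paired, members called were 1 in either library and 1 to 4 with 1 culture left out; genes called were 286 with DESeq2, 197 and 160 in libraries 1 and 2, 1015 without the filter and 77 to 628 with 1 culture left out (77 without Sema-3).

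In SemaLPS against LPS 0 members and 2 genes were called; the paired fit gave 1 and 303. Genes called were 14 with DESeq2, 0 at 20% mitochondrial UMIs, 0 and 5 in the libraries, 13 without the filter and 0 to 3 with 1 culture left out. Paired, members called were 0 with DESeq2, at 20% mitochondrial UMIs, by the hashtag ratio and in either library, 3 without the filter and 0 to 1 with 1 culture left out; genes called were 92 in library 1, 844 without the filter and 120 to 365 with 1 culture left out.

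For the interaction 0 genes were called, 7 in the paired fit, 1 with DESeq2, by the hashtag ratio or without the filter, and 0 to 1 with 1 culture left out; paired, 26 with DESeq2, 227 without the filter and 0 to 28. Averaged over LPS 1 member and 7 genes were called; the paired fit gave 4 and 1068. Members called were 0 with DESeq2, at 20% mitochondrial UMIs and in either library, 2 without the filter and 0 to 1 with 1 culture left out; genes called were 59 with DESeq2, 3 in library 1, 99 without the filter and 4 to 31. Paired, members called were 1 and 2 in the libraries, and genes called 693 with DESeq2, 475 and 665 in the libraries and 679 to 1045 with 1 culture left out. The causes were not tested, beyond that a library alone holds fewer cells. The block changed no other call of a member. EGR levels of 64 to 628 UMIs per culture limit the precision of single comparisons.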

Other observations

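The transcription factors of the myeloid circuit in which EGR1 and EGR2 act with PU.1 were called in both LPS contrasts. Of 9 tested, 5 rose and 4 fell in LPS against Ctrl, where 30.3% of all genes tested rose and 28.7% fell. The split was the same in SemaLPS against Sema, where 30.9% rose and 30.3% fell. CEBPB, a driver of inflammatory genes, rose by 1.38 on the log2 scale (SE 0.11), while MAF, a factor of resident macrophages, had a log2 fold change of −1.40 (SE 0.08) and ID2, an inhibitor of helix-loop-helix factors, of −1.25 (SE 0.07), with edgeR adjusted p at most 8.7e-08 for each. In Sema against Ctrl 0 of 9 passed without the block, and CEBPB alone passed in the paired fit (−0.24, SE 0.04, adjusted p = 0.00634), where 1.69% of all genes tested fell.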
